A study of Homo sapiens with 32 samples.

Results

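The comparison was of messenger RNA levels in human RPE-1 cells 10 h after serum was given back with those at the end of starvation, the 0 h point. It used 8 of the 32 libraries of the series, chosen by the time and assay in their labels: 4 RNA-seq libraries at 10 h and 4 at 0 h. RPE-1 is a line from human retinal pigment epithelium, immortalised with telomerase, that leaves the cell cycle when serum is withdrawn. The 10 h group was wild-type RPE-1 cells kept without serum for 18 h and then given serum for 10 h. The 0 h group was the same wild-type line taken after the same 18 h without serum, with none given back. The labels number 4 biological replicates per group and do not say how the cultures were separated, so p-values measure the spread between these libraries. All of them come from 1 cell line, and no library came from cells left unfed until 10 h, so the serum given and the 10 h that passed cannot be told apart. Total RNA was depleted of ribosomal RNA before sequencing, and the other libraries were RNA at 5 h and 15 h and ribosome-protected fragments (footprints) at all 4 times.

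A starved cell sits outside the cycle with the RB family of proteins holding E2F transcription factors silent. Serum growth factors raise cyclin D, CDK4 and CDK6 begin to phosphorylate RB proteins, and the released E2F factors switch on cyclin E, the origin-licensing proteins and the enzymes that make DNA and its precursors. In the same hours the cell raises its capacity to make ribosomes and turns down genes that FOXO factors keep on in the absence of growth signals. The labels give 10 h as a time only.

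Total counts ran from 645683 to 1107470 per library at 10 h and from 632023 to 882504 at 0 h, so a level of 1 CPM, a count scaled to library size, rests on about 1 read. Levels are given in CPM on scaled library sizes, and they are not comparable between genes because they are not divided by length. Changes are log2 ratios of 10 h over 0 h, with n = 4 in each group. The ± value on a change is an approximate standard error. It was worked out here from the change and the F statistic of its edgeR quasi-likelihood test. The fit does not return that error directly, and it is least certain for genes with few counts. A gene was called when its Benjamini-Hochberg adjusted p over all genes tested was under 0.05, and "rose" and "fell" are used only of called genes. All changes are relative to the other mRNAs of a library, since no spike-in was used. The RNA is from whole cultures, so more cells expressing a gene and more RNA per cell cannot be told apart. Replicates of a group differed along 1 main axis that held 47.6% of the within-group variance of 5602 well-measured genes, against 10.3% on the next, with 10 h replicates 1 (-0.40) and 2 (0.41) and 0 h replicates 1 (-0.30) and 3 (0.37) at its ends. An alternative without those 4 end libraries was added after the data were seen. It keeps only 10 h replicates 3 and 4 and 0 h replicates 2 and 4, and its effect is given beside many of the results it changes. Of 11 markers of pigment epithelium, RPE65 and TTR had no count in the 8 libraries, TYR, PMEL, RLBP1, SERPINF1 and TYRP1 had 4 counts or fewer at 10 h and 8 or fewer at 0 h, and 4 were counted at low levels. Those were the factors MITF (30.7 CPM at 10 h and 28.9 CPM at 0 h) and OTX2 (7.87 and 15.6 CPM), the channel BEST1 (4.01 and 10.7 CPM) and the receptor MERTK (2.51 and 18.6 CPM). Of the epithelial markers, the keratin KRT18 was at 812 CPM at 10 h and 787 CPM at 0 h, and KRT8 at 721 and 605 CPM. CDH1 and EPCAM had 0 counts at 10 h and 1 in all at 0 h. Of the mesenchymal markers, the filament gene VIM was at 6247 CPM at 10 h and 6997 CPM at 0 h. CDH2 was at 410 and 245 CPM and FN1 at 2547 and 2610 CPM, while COL1A1 had only 6 counts at 10 h and 9 at 0 h. Of 5 blood markers, CD3E, LYZ and HBB had no count and PTPRC had 1 at 10 h and 3 at 0 h, while CD68, a lysosomal protein that other cells also make, was at 16.3 CPM at 10 h and 20.9 CPM at 0 h. Endothelial CDH5 and PECAM1 had 1 count each at 10 h, against 3 and 5 at 0 h, and neuronal RBFOX3 and SNAP25 had 1 and 2 counts at 10 h, against 0 and 11 at 0 h.

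Of 19023 genes in the table, 8775 passed the filter on low counts and were tested. At 10 h 2046 of them, 23.3%, were higher than at 0 h and 1883, 21.5%, were lower. Of the called genes, 1094 rose and 878 fell by more than 2-fold, 294 rose and 187 fell by more than 4-fold, and 88 rose and 51 fell by more than 8-fold. All 4 libraries at 10 h lay above all 4 at 0 h for 1707 genes, 19.5%, and below them for 1519 genes, 17.3%. Without the 4 end libraries, 1603 genes were higher and 1056 lower. Where a gene list below has 0 members called in a direction, 0 had an unadjusted edgeR p under 0.05 in that direction and DESeq2 called 0, except that 1 fork gene and 1 recombination gene were lower at that unadjusted p. Genes that rose had a median level at 0 h of 38.1 CPM, below the 61.3 CPM of genes that fell. At 10 h the order was the reverse, with medians of 87.3 and 29.6 CPM. The genes were grouped by that same change, so the order at either time is no separate result. The median length of the counted part of a gene was 1233 bases in those that rose. It was 1419 bases in those that fell and 1371 bases in those not called. The largest gain in CPM was that of HSPA8, the constitutive HSP70 chaperone, which had 10731, 7674, 10228 and 9970 CPM at 10 h, against 5892, 4454, 4130 and 5012 CPM at 0 h. The largest loss was that of EEF2, the factor that moves the ribosome along the mRNA, which had 2148, 4682, 3094 and 3148 CPM at 10 h, against 8736, 10588, 10340 and 9191 CPM at 0 h. In both genes the groups did not overlap, and the changes were 0.99 ± 0.13 and -1.57 ± 0.21 on the log2 scale (adjusted p 4.08e-06 and 5.02e-06).

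**Figure D1:**
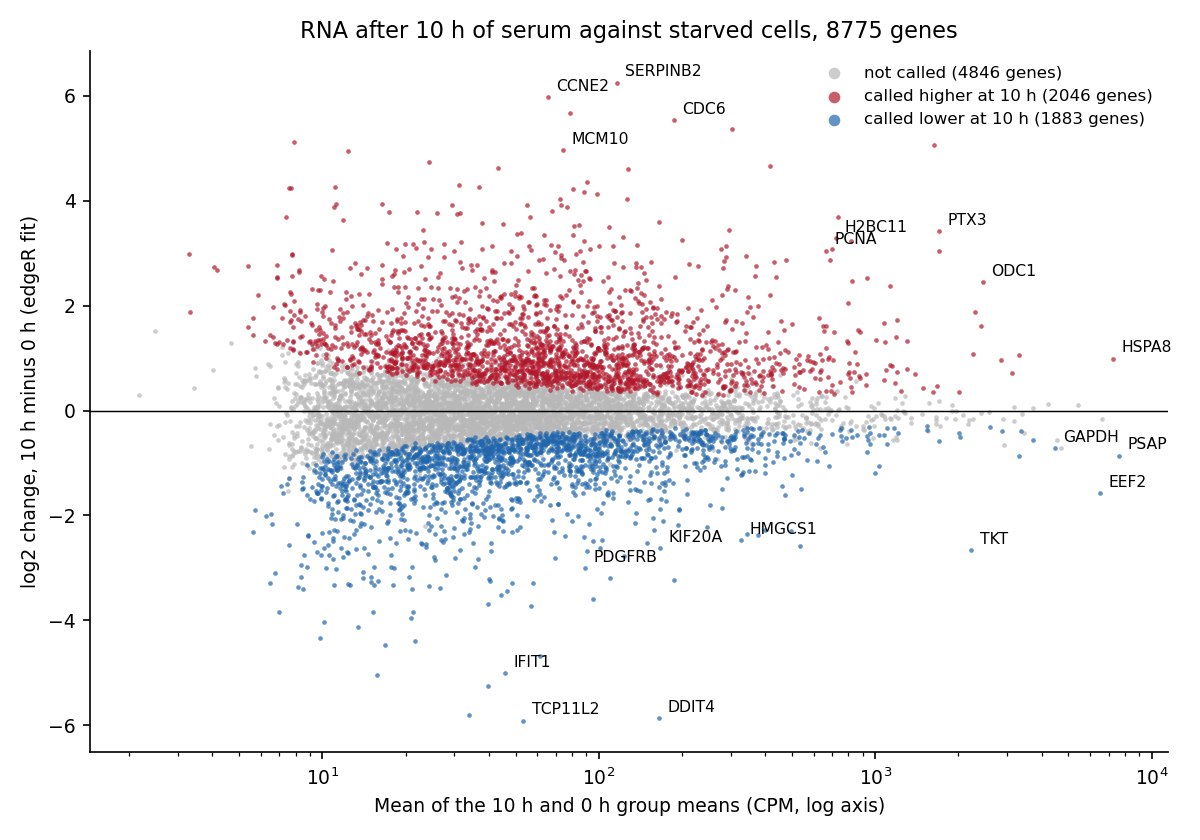
Change at 10 h against 0 h (log2, y axis) by mean level of the 2 groups (CPM, log x axis) for 8775 tested genes, with 2046 called higher in red, 1883 called lower in blue and 4846 not called in grey. The largest rises and falls belong mostly to genes of low or middle level, while the most abundant genes that were called changed by smaller amounts.

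The 15 largest rises and the 15 largest falls were taken among called genes with a mean of at least 10 CPM in a group and no overlap between groups. The largest rise was that of SERPINB2 (ENSG00000197632), the plasminogen activator inhibitor PAI-2, which had 183, 226, 212 and 295 CPM at 10 h, against 4.85, 2.12, 2.89 and 1.49 CPM at 0 h. The next after CCNE2 was FAM111B, a protease gene of cycling cells, which had 263, 67.3, 133 and 157 CPM at 10 h, against 3.63, 2.12, 2.89 and 2.99 CPM at 0 h. ADAMTS1, a secreted metalloprotease that cuts matrix proteoglycans, had 456, 669, 507 and 731 CPM at 10 h, against 19.4, 14.8, 10.1 and 12 CPM at 0 h. The groups lay far apart in each, by 6.25 ± 0.26, 5.68 ± 0.51 and 5.36 ± 0.23 (adjusted p 1.07e-13, 3.95e-08 and 1.68e-13), with 9 counts in all at 0 h behind SERPINB2 and 9 behind FAM111B. For FAM111B, 10 h replicate 1 was the highest library and 10 h replicate 2 the lowest of its group. MCM10, which helps to start the fork, rose by 4.96 ± 0.25, the chromosome-bridge translocase ERCC6L by 4.63 ± 0.42 and the zinc finger gene ZNF367 by 4.30 ± 0.33. AUNIP and MTFR2 rested on 2 counts and 1 count at 0 h, so no fold is given for them. CXCL8, the neutrophil chemokine, rose by 4.74 ± 0.39 from 5 counts at 0 h. Among the falls, PIK3IP1, an inhibitor of PI3K, had 1.02, 0, 1.56 and 1.8 CPM at 10 h, against 54.5, 81.6, 59.2 and 71.7 CPM at 0 h. SLC2A12, a glucose transporter, had 3.07, 0.961, 4.68 and 0 CPM at 10 h, against 76.3, 81.6, 76.5 and 74.7 CPM at 0 h. PPL, the desmosomal plakin periplakin, had 4.1, 5.77, 1.56 and 5.4 CPM at 10 h, against 69, 155, 165 and 85.2 CPM at 0 h. None of the 3 overlapped between groups, and they fell to a few counts per library at 10 h (-5.80 ± 0.42, -5.26 ± 0.43 and -4.68 ± 0.38; adjusted p 4.11e-10, 2.71e-09 and 2.6e-09). The sestrin SESN3, a restraint on mTORC1, had 3 counts at 10 h and 96 at 0 h, and BMF, a BH3-only protein of cell death, had 5 at 10 h and 101 at 0 h. The glutamate receptor subunit GRIN2A (-4.40 ± 0.45), the prostacyclin synthase PTGIS (-4.13 ± 0.48), the chemerin receptor CMKLR1 (-4.04 ± 0.52) and the transporter ABCA6 (-3.85 ± 0.41) fell too, each with 10 counts or fewer at 10 h. SLIT2, the axon guidance ligand, had one of the 5 largest losses of mean CPM without being called (3557 ± 1647 CPM at 10 h and 5840 ± 2608 CPM at 0 h, -0.72 ± 0.37, adjusted p 0.131). Its adjusted p was 0.0467 with a replicate block, 0.0219 without 10 h replicate 3 and 0.0473 without 0 h replicate 2.

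Cyclins D1 and E, their partner CDK2 and the phosphatase CDC25A rose, while the cyclin D kinases CDK4 and CDK6 were not called. CCND1 (ENSG00000110092), cyclin D1, had 854, 1580, 1155 and 1236 CPM at 10 h, against 121, 158, 225 and 155 CPM at 0 h. The groups did not overlap and the change was 2.87 ± 0.20, 7.33-fold higher at 10 h (adjusted p 2.6e-10). CDK2, the kinase that cyclin E activates, had 125, 116, 114 and 105 CPM at 10 h, against 10.9, 8.47, 14.4 and 12 CPM at 0 h. CCNE1, cyclin E1, had 41, 44.2, 42.1 and 55.8 CPM at 10 h, against 6.06, 7.41, 8.66 and 7.47 CPM at 0 h. Both were higher in all 4 libraries at 10 h, CDK2 by 3.34 ± 0.18 and CCNE1 by 2.62 ± 0.25 (adjusted p 5.8e-12 and 2.39e-08). CCNE2, cyclin E2, rested on 6 counts in the 4 libraries at 0 h and had 204, 74, 81.2 and 157 CPM at 10 h, against 3.63, 1.06, 0 and 2.99 CPM at 0 h. The 10 h libraries lay well above the 0 h ones and also differed among themselves, replicates 1 and 4 being the high ones (5.98 ± 0.57, adjusted p 8.53e-08). CDC25A, the phosphatase that removes the inhibitory phosphates of CDK2, had 136, 163, 150 and 164 CPM at 10 h, against 7.27, 5.3, 11.6 and 8.97 CPM at 0 h. That is an 18.8-fold rise with no overlap (4.23 ± 0.25, adjusted p 2.35e-11). Of 23 cyclins, CDKs and their direct regulators tested, 14 rose and 5 fell, beside 23.3% and 21.5% of all genes tested, the falls being near that share. The median was 0.81 beside -0.03 over all genes tested. CDK4 was at -0.01 ± 0.16 and CDK6 at 0.64 ± 0.27. The 5 that fell, named after their values were seen, were the mitotic cyclins CCNB1 and CCNB2, the mitotic phosphatase CDC25B, the anaphase-promoting complex activator FZR1 and the stress-linked cyclin CCNG1.

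The transcription factors and repressors of the G1/S switch went both ways. E2F1, an activator E2F, had 216, 271, 295 and 207 CPM at 10 h, against 36.3, 21.2, 43.3 and 49.3 CPM at 0 h. MYBL2, the B-MYB factor that takes part in late-cycle transcription, had 132, 248, 87.4 and 132 CPM at 10 h, against 7.27, 18, 17.3 and 8.97 CPM at 0 h. Neither gene overlapped between groups, and they rose by 2.74 ± 0.23 and 3.52 ± 0.39 (adjusted p 2.79e-09 and 6.67e-07). Of 9 E2F, MYB and FOXM1 family members tested, 7 rose, 1 fell (TFDP2, an E2F partner, at -1.18 ± 0.18) and FOXM1 was not called (-0.63 ± 0.32, adjusted p 0.112). Without 0 h replicate 4, the FOXM1 value was -0.82 with an adjusted p of 0.0439. The pocket proteins moved in opposite directions. RBL1 (p107), a repressor that is itself an E2F target, had 167, 128, 101 and 126 CPM at 10 h, against 33.9, 26.5, 26 and 37.4 CPM at 0 h. RBL2 (p130), the pocket protein of resting cells, had 68.6, 61.5, 56.2 and 65.8 CPM at 10 h, against 124, 121, 140 and 142 CPM at 0 h. Neither overlapped between groups, with RBL1 at 2.09 ± 0.19 and RBL2 at -1.05 ± 0.14 (adjusted p 1.05e-08 and 3.85e-06), and RB1 itself rose by 0.83 ± 0.21. CDKN1C, the CDK inhibitor p57, had 1.02, 4.81, 1.56 and 1.8 CPM at 10 h, against 29.1, 28.6, 53.4 and 46.3 CPM at 0 h. It was lower in all 4 libraries at 10 h (-3.95 ± 0.40, adjusted p 5.25e-08). CDKN1A, the inhibitor p21, had 34.8, 67.3, 40.6 and 48.6 CPM at 10 h, against 63, 74.1, 67.9 and 79.2 CPM at 0 h. Those groups overlapped, the adjusted p was 0.0312 (-0.55 ± 0.20), and the call was lost without any 1 of 6 libraries (10 h replicates 1, 3 and 4 and 0 h replicates 2, 3 and 4; adjusted p from 0.0615 to 0.167). The CDKN1A call was also lost without the 4 end libraries, from the 8 compared libraries alone and with either alternative filter on low counts. Of 13 CDK inhibitors and RB-family genes tested, 5 rose and 6 fell; without the 4 end libraries 2 rose.

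**Figure D2:**
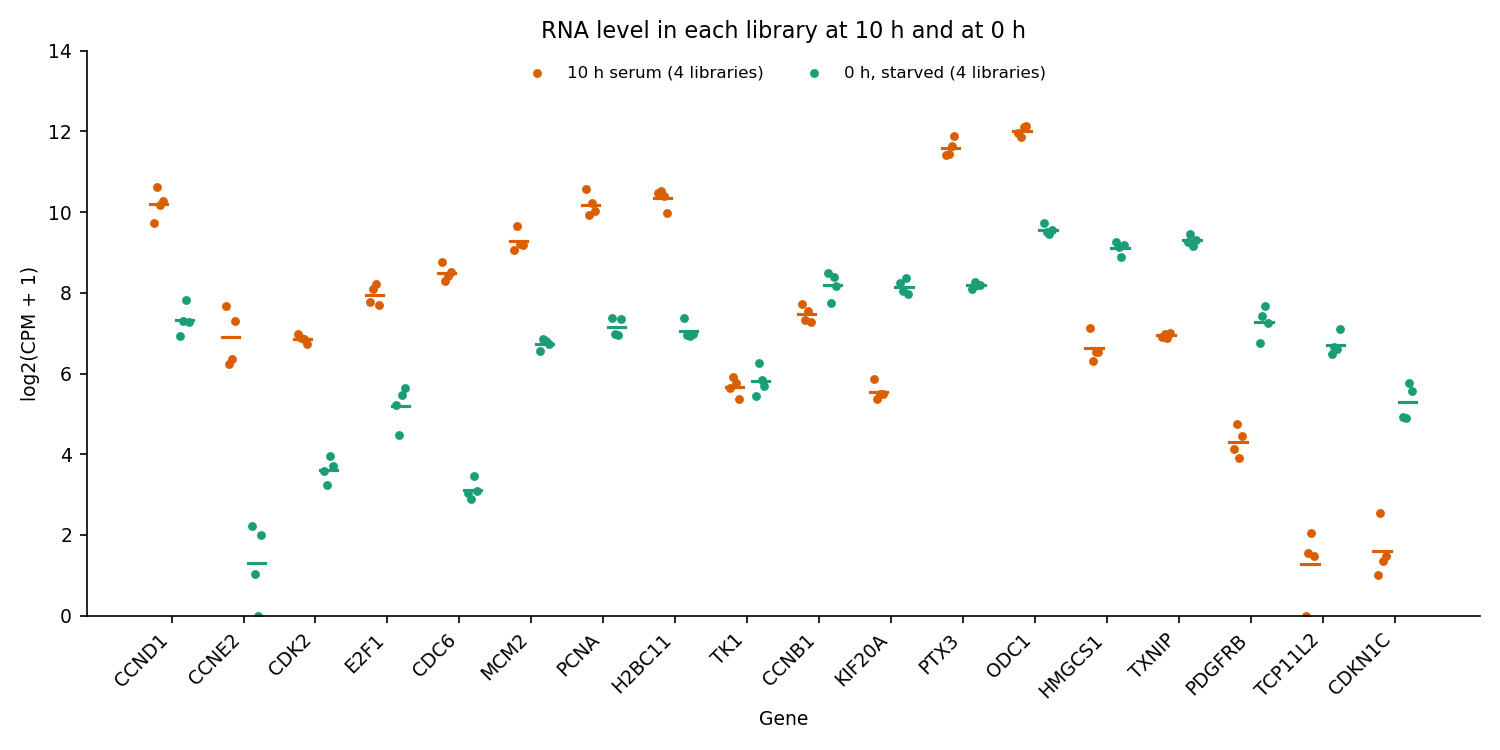
Level of 18 genes in each library as log2(CPM + 1) (y axis), with the 4 libraries at 10 h in orange on the left of each pair and the 4 at 0 h in green on the right, and bars at the group means. The genes from CCND1 to H2BC11, PTX3 and ODC1 lie apart with 10 h higher. KIF20A and the 5 genes from HMGCS1 to CDKN1C lie apart with 10 h lower. CCNB1 is lower at 10 h with groups that almost touch, and TK1 overlaps.

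Genes that load and fire replication origins rose almost as a whole. Of 31 tested, 29 rose and 0 fell, with a median of 2.56. CDC6, which loads the MCM helicase onto origins, had 435, 314, 343 and 366 CPM at 10 h, against 7.27, 6.36, 10.1 and 7.47 CPM at 0 h, a rise of 5.54 ± 0.26 (adjusted p 6.37e-13). MCM2, a helicase subunit, had 535, 800, 595 and 578 CPM at 10 h, against 93.3, 115, 111 and 105 CPM at 0 h, a rise of 2.56 ± 0.17 (adjusted p 6.96e-11). In both the groups did not overlap. The other MCM2-7 subunits tested rose by amounts between 2.21 ± 0.13 (MCM7) and 3.14 ± 0.26 (MCM6). ORC6 (4.36 ± 0.34) and ORC1 (3.15 ± 0.26) of the origin recognition complex rose more than ORC5 (0.72 ± 0.21) and ORC2 (0.45 ± 0.18) by their point values, a difference that was not tested. ORC3 (0.02 ± 0.28) and ORC4 (-0.40 ± 0.26), named after their values were seen, were the 2 that were not called. CDT1, the licensing factor that geminin inhibits, had 30.7, 61.5, 35.9 and 45 CPM at 10 h, against 18.2, 15.9, 23.1 and 10.5 CPM at 0 h. It rose by 1.36 ± 0.30 (adjusted p 0.000783) with no overlap, and its inhibitor GMNN rose by 2.91 ± 0.24. Together the licensing genes held 0.59%, 0.594%, 0.538% and 0.569% of counts at 10 h, against 0.124%, 0.114%, 0.119% and 0.112% at 0 h.

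The replication fork followed the same direction. Of 33 polymerases, clamp loaders and fork proteins tested, 27 rose and 0 fell (median 1.94). FEN1 (ENSG00000168496), the flap endonuclease that trims Okazaki fragments, had 243, 271, 211 and 231 CPM at 10 h, against 15.7, 23.3, 11.6 and 4.48 CPM at 0 h. There was no overlap, and the change was 4.04 ± 0.23 (adjusted p 1.07e-11). PCNA, the sliding clamp, had 1535, 967, 1200 and 1039 CPM at 10 h, against 164, 125, 124 and 161 CPM at 0 h, with RFC3, a subunit of the complex that loads it, at 3.69 ± 0.28. PCNA rose by 3.05 ± 0.20 (adjusted p 9.13e-11), again with no overlap. POLA2 (2.59 ± 0.18), POLD3 (2.51 ± 0.42) and POLE2 (2.17 ± 0.31), accessory subunits of the replicative polymerases, rose too, while LIG1, the ligase that seals the fragments, was not called (0.56 ± 0.25), nor were RPA1 (0.46 ± 0.41) and RPA3 (-0.45 ± 0.24) of the single-strand binding complex. Recombination, Fanconi and checkpoint genes rose in 32 of 36 tested and fell in 0 (median 1.83). DTL, which recruits an E3 ligase to chromatin-bound PCNA, had 261, 214, 254 and 251 CPM at 10 h, against 14.5, 6.36, 8.66 and 10.5 CPM at 0 h. EXO1, a resection nuclease, had 199, 141, 151 and 177 CPM at 10 h, against 10.9, 9.53, 10.1 and 5.98 CPM at 0 h. Their groups did not overlap, and the rises were 4.61 ± 0.24 and 4.16 ± 0.28 (adjusted p 2.08e-12 and 1.29e-10). BRCA2 (3.21 ± 0.41), which takes part in pairing broken ends with their template, rose more than BRCA1 (1.59 ± 0.26) by point value, and the checkpoint kinase CHEK1 rose by 1.47 ± 0.23, while ATM was not called (-0.40 ± 0.23).

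Genes that supply deoxynucleotides were divided at 10 h. Of 11 tested, 5 rose and 1 fell, with a median of 0.10. RRM2, the radical-carrying small subunit of ribonucleotide reductase in cycling cells, had 53.3, 51.9, 37.5 and 29.7 CPM at 10 h, against 12.1, 9.53, 7.22 and 13.5 CPM at 0 h. TYMS, thymidylate synthase, had 37.9, 69.2, 37.5 and 39.6 CPM at 10 h, against 20.6, 26.5, 24.5 and 13.5 CPM at 0 h. TK1, the thymidine kinase of S-phase cells, had 49.2, 59.6, 53.1 and 40.5 CPM at 10 h, against 42.4, 75.2, 56.3 and 50.8 CPM at 0 h. RRM2 and TYMS did not overlap and rose by 2.02 ± 0.31 and 1.10 ± 0.30 (adjusted p 1.45e-05 and 0.00458; TYMS 0.0857 without the 4 end libraries), while the TK1 groups overlapped and it was not called (-0.17 ± 0.20, adjusted p 0.528). RRM1, the catalytic large subunit, rose by 1.63 ± 0.31, and RRM2B, the p53-regulated small subunit that serves resting cells, fell by 1.32 on the log2 scale. Of 17 enzymes of purine and pyrimidine base synthesis tested, 11 rose and 1 fell (median 1.08). CTPS1, which makes CTP, had 127, 192, 116 and 158 CPM at 10 h, against 10.9, 23.3, 13 and 8.97 CPM at 0 h, a rise of 3.35 ± 0.27 (adjusted p 1.62e-09) with no overlap. PPAT, the first enzyme of purine synthesis, rose by 2.19 ± 0.25 and UMPS, the last of UMP synthesis, by 2.14 ± 0.16, while IMPDH2, which leads to GTP, fell by 0.38 on the log2 scale; that last call, the single fall of the list, was lost without 10 h replicate 1.

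A match to the letters of an E2F motif (TTTGGCGC or TTTCCCGC, either strand) was looked for in the window from 250 bases before to 50 bases after each gene's start in RefSeq (GRCh38.p14), where 7291 of the 8775 tested genes were found by symbol. Of 95 promoters of the 4 lists on licensing, fork, deoxynucleotides and recombination, 23 held it, 24.2%, against 2.27% of all 35116 promoters in the table and 4.06% of tested genes. Among genes that rose by more than 4-fold 25 of 238 promoters held it, and among those that fell by more than 4-fold 1 of 138 did. The windows of CDC6 (chr17:40287629-40287928, plus strand) and DTL (chr1:212035498-212035797, plus strand) are shown 5′ to 3′ because they had the largest rises among members of those lists that hold a match. Capitals mark the match, which begins at base 8 in CDC6 and 8 bases before the start in DTL. Here and below, base 1 is the first base after the 250 that precede the start.
CDC6: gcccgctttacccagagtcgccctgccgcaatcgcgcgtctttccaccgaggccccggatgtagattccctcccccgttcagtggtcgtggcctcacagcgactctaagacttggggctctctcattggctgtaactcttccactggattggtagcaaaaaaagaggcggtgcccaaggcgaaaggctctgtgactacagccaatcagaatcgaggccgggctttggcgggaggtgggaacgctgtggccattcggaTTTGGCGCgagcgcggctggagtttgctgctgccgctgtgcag
DTL: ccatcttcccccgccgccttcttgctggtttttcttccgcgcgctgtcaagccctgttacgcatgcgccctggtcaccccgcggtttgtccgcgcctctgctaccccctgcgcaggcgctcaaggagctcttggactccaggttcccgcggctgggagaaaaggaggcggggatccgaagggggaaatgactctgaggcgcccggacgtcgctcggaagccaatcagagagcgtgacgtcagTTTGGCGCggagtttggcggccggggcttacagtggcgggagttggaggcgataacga
A match is a description of the letters and not evidence of binding. None of 39 promoters of replication-dependent histone genes and 1 of 43 of the mitotic genes held these letters.

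Replication-dependent histones, which package new DNA and whose mRNAs end in a stem-loop without a poly(A) tail, could be counted because the libraries were made from rRNA-depleted total RNA. Of 59 listed, 43 were tested; 40 rose and 0 fell, with a median of 1.87. H2BC11, an H2B gene, had 1410, 1478, 1341 and 1013 CPM at 10 h, against 165, 123, 121 and 126 CPM at 0 h. The groups did not overlap (3.29 ± 0.16, adjusted p 6.56e-13). The largest rise in the list was that of H2AC14, an H2A gene (127 ± 23.5 CPM at 10 h and 8.94 ± 3.47 CPM at 0 h, 3.81 ± 0.24), and the smallest called one that of H1-2, a linker histone (0.43 ± 0.13). H3C4, H3C6 and H4C5 were not called. Many of these genes are near-identical copies, and how shared reads were assigned is not stated in the sources used here, so the value of a single histone gene is uncertain. The list held 2.3%, 2.55%, 2.06% and 1.76% of counts at 10 h and 0.812%, 0.787%, 0.747% and 0.772% at 0 h. SLBP, the protein that binds the histone stem-loop, had 382, 289, 331 and 338 CPM at 10 h, against 110, 105, 95.3 and 103 CPM at 0 h. Its groups did not overlap and it rose by 1.69 ± 0.17 (adjusted p 3.53e-08). Of 8 histone processing genes tested 6 rose and 0 fell (3 and 0 without the 4 end libraries), NPAT, the histone gene activator that cyclin E-CDK2 phosphorylates, by 0.86 ± 0.33 with an adjusted p of 0.0376 that exceeded the threshold without any 1 of 5 libraries (10 h replicates 1 and 4 and any at 0 h but replicate 4). The NPAT call was also lost without the 4 end libraries, from the 8 compared libraries alone and on total counts alone.

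Mitotic genes went both ways at 10 h, with more rises than falls. Of 54 tested, 31 rose, 6 fell and 17 were not called, with a median of 0.90. Over all genes tested 23.3% rose and 21.5% fell, so the share of falls in this list was below that of all genes. KIF20A, a kinesin of cytokinesis, had 57.4, 40.4, 43.7 and 44.1 CPM at 10 h, against 304, 261, 329 and 250 CPM at 0 h. CCNB1, cyclin B1, counted in the cyclin list above and not in this one, had 211, 159, 186 and 154 CPM at 10 h, against 362, 214, 334 and 287 CPM at 0 h. In both, every library at 10 h lay below every one at 0 h (-2.62 ± 0.17 and -0.75 ± 0.18; adjusted p 9.13e-11 and 0.00178), and without the 4 end libraries CCNB1 was at -0.50 with an adjusted p of 0.121. The other 5 of the mitotic list that fell, named after their values were seen, were securin PTTG1 (-2.28 ± 0.24), the spindle protein DLGAP5 (-1.24 ± 0.34), survivin BIRC5 (-1.08 ± 0.16), the cytokinesis kinase CIT (-0.76 ± 0.21) and the centromere protein CENPM (-0.69 ± 0.27). TOP2A, topoisomerase II, had 454, 283, 248 and 331 CPM at 10 h, against 185, 124, 137 and 133 CPM at 0 h. TTK, the spindle checkpoint kinase MPS1, had 195, 35.6, 84.3 and 96.4 CPM at 10 h, against 29.1, 21.2, 24.5 and 26.9 CPM at 0 h. Both rose with no overlap, TOP2A by 1.18 ± 0.20 and TTK by 2.02 ± 0.40 (adjusted p 5.43e-05 and 0.000537), and 10 h replicate 1 was the highest library for each. Larger rises in the list were those of the kinetochore genes DSN1 (3.03 ± 0.29) and CENPK (2.65 ± 0.34), of PLK4, the kinase of centriole duplication (2.55 ± 0.36), of KIFC1, a minus-end kinesin (2.18 ± 0.22), and of the spindle checkpoint gene MAD2L1 (2.18 ± 0.26). MKI67, which codes for the Ki-67 antigen, was not called (0.39 ± 0.27), nor were the kinase AURKA (0.44 ± 0.19) and CDC20 (0.34 ± 0.23), the activator of the anaphase-promoting complex. AURKA passed the threshold without 10 h replicate 2 (0.55, adjusted p 0.0386) or 0 h replicate 1 (0.61, adjusted p 0.0202), and CDC20 without 0 h replicate 3 (0.65, adjusted p 0.025). The share of counts over the whole list was 0.633%, 0.383%, 0.417% and 0.453% at 10 h, against 0.384%, 0.308%, 0.31% and 0.35% at 0 h, where the groups overlap by 1 pair of libraries.

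Promoters of the mitotic list were searched for the letters TTTGAA, the cell cycle homology region (CHR) to which the DREAM and MuvB complexes bind, on either strand. Of 43 found, 28 held it, 65.1%, against 15.2% of all promoters and 9.71% of tested genes, and 34 held CCAAT, the NF-Y box, against 34.6% of all promoters. The windows of PLK4 (chr4:127880643-127880942, plus strand) and KIFC1 (chr6:33391573-33391872, plus strand) are shown because these genes had the largest rises among list members with a match. Capitals mark the match, read as TTCAAA on the strand printed, beginning at base 39 in PLK4 and at base 5 in KIFC1.
PLK4: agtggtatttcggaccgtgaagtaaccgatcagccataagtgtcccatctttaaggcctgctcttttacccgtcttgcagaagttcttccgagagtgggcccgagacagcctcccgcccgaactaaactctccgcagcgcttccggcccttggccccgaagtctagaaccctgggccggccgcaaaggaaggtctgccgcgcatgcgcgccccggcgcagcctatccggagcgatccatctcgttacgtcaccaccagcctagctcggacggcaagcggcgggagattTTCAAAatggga
KIFC1: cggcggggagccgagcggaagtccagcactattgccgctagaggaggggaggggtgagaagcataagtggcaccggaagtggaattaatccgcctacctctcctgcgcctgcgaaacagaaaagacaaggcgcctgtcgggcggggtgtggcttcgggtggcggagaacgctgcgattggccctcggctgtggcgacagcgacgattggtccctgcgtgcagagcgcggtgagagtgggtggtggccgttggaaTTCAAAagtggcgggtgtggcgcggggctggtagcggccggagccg

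Growth genes rose alongside. Of 44 ribosome biogenesis factors tested, 40 rose and 0 fell (median 1.60), and the list held 0.793%, 0.716%, 0.7% and 0.786% of counts at 10 h and 0.337%, 0.318%, 0.283% and 0.318% at 0 h. DDX21, a nucleolar helicase, had 579, 423, 418 and 530 CPM at 10 h, against 81.2, 84.7, 67.9 and 62.8 CPM at 0 h. NOP16, a factor of the large subunit, had 66.6, 75, 81.2 and 67.6 CPM at 10 h, against 14.5, 9.53, 15.9 and 5.98 CPM at 0 h. Neither overlapped, and they rose by 2.71 ± 0.15 and 2.64 ± 0.23 (adjusted p 6.25e-12 and 7.34e-09). The letters CACGTG, the E-box that MYC binds, were in 16 of 36 promoters of this list, 44.4%, against 7.26% of all promoters and 10.6% of tested genes, and in 28.6% of those of the autophagy and lysosome list. MYC had 84, 114, 93.7 and 92.8 CPM at 10 h, against 20.6, 24.4, 15.9 and 13.5 CPM at 0 h, a rise of 2.34 ± 0.21 (adjusted p 1.27e-08). RNA polymerase I and III genes rose in 15 of 27 and fell in 1, MAF1, the repressor of polymerase III (-0.93 ± 0.17). ODC1, ornithine decarboxylase, the first enzyme of polyamine synthesis, had 4016, 3715, 4391 and 4460 CPM at 10 h, against 853, 726, 699 and 756 CPM at 0 h. Its groups lay far apart (2.45 ± 0.12, adjusted p 8.07e-13). PAOX, a polyamine oxidase, fell by 1.60 on the log2 scale.

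Protein folding, RNA processing and nuclear transport lists moved one way among called members. Of 22 chaperonin and heat shock genes, 16 rose and 0 fell; CCT5, a chaperonin subunit, had 1994, 1665, 1986 and 1730 CPM at 10 h, against 630, 518, 500 and 592 CPM at 0 h, a rise of 1.72 ± 0.13 with no overlap (adjusted p 6.56e-10). Of 43 nuclear transport genes and nucleoporins, 33 rose and 0 fell; NUP205, a scaffold nucleoporin, had 515, 488, 445 and 473 CPM at 10 h, against 176, 150, 146 and 118 CPM at 0 h, a rise of 1.70 ± 0.13 with no overlap (adjusted p 7.82e-10). Of 30 splicing factors, 16 rose and 0 fell; SRSF7, an SR protein, had 882, 662, 766 and 719 CPM at 10 h, against 137, 103, 92.4 and 88.2 CPM at 0 h, a rise of 2.84 ± 0.17 with no overlap (adjusted p 2.03e-11). Among 20 aminoacyl-tRNA synthetases 13 were called higher and 2 lower, with FARSB at 1.72 ± 0.17 and QARS1 at -1.22 ± 0.18. Amino acid genes of the ATF4 programme went both ways, 12 up and 10 down of 25 (5 down without the 4 end libraries): the folate enzyme MTHFD2 (2.54 ± 0.19) and asparagine synthetase ASNS (1.84 ± 0.23) rose, while the stress regulators TRIB3 (-1.72 ± 0.38), DDIT3 (-1.10 ± 0.33) and NUPR1 (-1.97 ± 0.25) fell.

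Ribosomal protein mRNAs were not higher at 10 h. These genes, like HSPA8, ACTB and GAPDH, have processed pseudogenes, and how reads shared with a copy were assigned is not stated in the sources used here, so single values are uncertain. Of 62 cytosolic ribosomal protein genes tested, 0 rose and 12 fell, with a median of -0.18. RPL32, a large-subunit protein, had 702, 401, 585 and 566 CPM at 10 h, against 895, 534, 504 and 709 CPM at 0 h. The groups overlapped and it was not called (-0.23 ± 0.19, adjusted p 0.331). RPL13A, another, had 373, 405, 462 and 336 CPM at 10 h, against 614, 539, 560 and 659 CPM at 0 h, a change of -0.59 ± 0.13 with no overlap (adjusted p 0.000691). The count of falls was 4 without 10 h replicate 1, 7 without 10 h replicate 4 and 1 without the 4 end libraries, and 19 where total counts alone set the scale. In the footprint libraries, where 4322 of 10959 genes tested (39.4%) were higher at 10 h than at 0 h and 4275 (39%) lower, all 62 were higher, with a median log2 change of 2.59. Of 42 translation factors, 12 rose and 8 fell, near the 23.3% and 21.5% of all genes tested (5 fell without 10 h replicate 1 and 3 without the 4 end libraries). Among them EIF2S1, the alpha subunit of eIF2, rose by 1.84 ± 0.16, and EEF2 had a footprint change of 2.87 beside its RNA change of -1.57 ± 0.21. Of 12 mitochondrially encoded mRNAs tested, 7 fell and 0 rose (median -0.58), with 4 falls without 10 h replicate 4 and 4 without the 4 end libraries. MT-ND4, a complex I subunit, had 43, 36.5, 37.5 and 32.4 CPM at 10 h, against 75.1, 82.6, 62.1 and 74.7 CPM at 0 h, a change of -0.98 ± 0.19 with no overlap (adjusted p 0.000215).

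**Figure D3:**
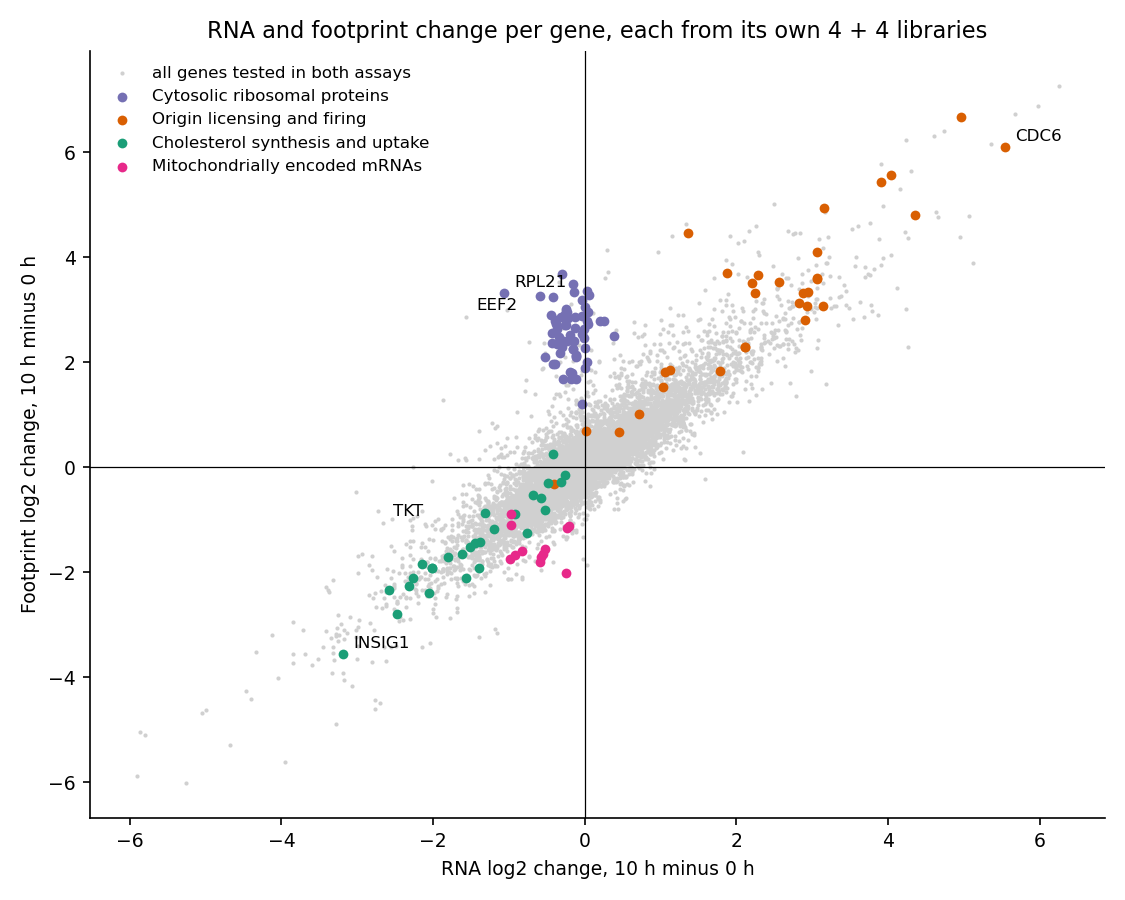
RNA change (x axis) against footprint change (y axis) at 10 h over 0 h, both log2, for genes tested in both assays, with ribosomal proteins in purple, licensing genes in orange, cholesterol genes in green and mitochondrially encoded mRNAs in pink. Cholesterol genes lie near the diagonal. Licensing genes have a median of 3.32 in footprints, above their 2.56 in RNA. Ribosomal proteins lie above the diagonal, with RNA changes near 0 and footprint changes around their median of 2.59.

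Secreted and cytoskeletal genes of the serum response were still high at 10 h. PTX3, a long pentraxin of the matrix, had 2709, 2764, 3177 and 3790 CPM at 10 h, against 274, 306, 290 and 294 CPM at 0 h. F3, tissue factor, had 724, 765, 784 and 941 CPM at 10 h, against 47.2, 21.2, 34.7 and 23.9 CPM at 0 h. Neither overlapped, and the rises were 3.42 ± 0.13 and 4.66 ± 0.19 (adjusted p 3.17e-14 and 7.6e-14). Of 14 NF-kB and cytokine genes tested, 9 rose and 1 fell, IL1B (-1.97 ± 0.42; 2 fell without any 1 library except 0 h replicate 3), with a median of 1.55. Of 25 SRF and YAP targets, 13 rose and 2 fell (median 0.88; 1 fell without 10 h replicate 1, 10 h replicate 4 or 0 h replicate 3), with the actin-binding TAGLN at 2.87 ± 0.13, the muscle ankyrin protein ANKRD1 at 3.05 ± 0.19 and ACTB at 1.33 ± 0.25. Among BMP genes, the ligand BMP2 (4.26 ± 0.35) and the antagonists GREM1 (3.49 ± 0.22) and FST (2.93 ± 0.15) rose, while the ligand BMP4 fell (-1.46 ± 0.26). The list of immediate-early genes and ERK inhibitors had 21 tested members, of which 6 rose and 6 fell, beside 23.3% and 21.5% of all genes tested. The EGF-family ligand HBEGF (2.94 ± 0.32) and the AP-1 protein FOSL1 (2.98 ± 0.66) rose. The ERK phosphatase DUSP6 had 27.7, 30.8, 20.3 and 25.2 CPM at 10 h, against 32.7, 48.7, 56.3 and 52.3 CPM at 0 h, below 0 h in all libraries (-0.84 ± 0.22, adjusted p 0.00344). FN1, fibronectin, was not called (-0.03 ± 0.30).

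PDGFRB (ENSG00000113721), the receptor for PDGF-BB in serum, had 16.4, 25.9, 14 and 20.7 CPM at 10 h, against 108, 172, 204 and 152 CPM at 0 h. It was 8-fold lower at 10 h with no overlap (-3.00 ± 0.29, adjusted p 4.06e-08), and PDGFRA fell by 2.15 on the log2 scale. Of 19 receptor tyrosine kinases and ligands tested, 8 rose and 2 fell (1 fell without 10 h replicate 1 or 0 h replicate 4), the ligand FGF2 rising by 2.69 ± 0.20 and the receptor EGFR not called (0.12 ± 0.20).

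The genes of resting cells fell. Of 24 quiescence and FOXO-linked genes tested, 16 fell and 5 rose (2 rose without the 4 end libraries), with a median of -1.62. Over all genes tested 21.5% fell and 23.3% rose, so the rises were near that share. All 4 libraries at 10 h lay below all 4 at 0 h for 13 of the 24 and above them for 1. YPEL3, a gene linked to growth arrest, had 2.05, 6.73, 3.12 and 4.5 CPM at 10 h, against 44.8, 37.1, 46.2 and 49.3 CPM at 0 h. TXNIP, the thioredoxin-binding protein that restrains glucose uptake, had 119, 125, 117 and 128 CPM at 10 h, against 607, 706, 572 and 638 CPM at 0 h. HBP1, a repressor of cyclin D1 and other cycle genes, had 47.1, 31.7, 31.2 and 32.4 CPM at 10 h, against 383, 342, 258 and 374 CPM at 0 h. None of the 3 overlapped between groups, and the changes were -3.34 ± 0.32, -2.37 ± 0.15 and -3.24 ± 0.19 (adjusted p 2.92e-08, 6.32e-11 and 1.48e-11). TCP11L2, whose role is less well known, had 0, 1.92, 3.12 and 1.8 CPM at 10 h, against 88.4, 99.6, 96.7 and 136 CPM at 0 h, from 6 counts in all at 10 h. The 5 that rose, named after their values were seen, were KLF2, KLF6, IRS1, CITED2 and BNIP3. The letters TGTTTAC, which FOXO factors bind, were in 6 of 24 promoters of this list, 25%, against 3.42% of all promoters, and in 10 of 138 promoters of genes that fell by more than 4-fold, 7.25%, against 2.36% of tested genes. The windows of TCP11L2 (chr12:106302483-106302782, plus strand) and YPEL3 (chr16:30096164-30096463, minus strand) are shown because they had the largest falls among list members with a match. Capitals mark the match, read as GTAAACA on the strand printed, beginning 232 bases before the start in TCP11L2 and at base 1 in YPEL3.
TCP11L2: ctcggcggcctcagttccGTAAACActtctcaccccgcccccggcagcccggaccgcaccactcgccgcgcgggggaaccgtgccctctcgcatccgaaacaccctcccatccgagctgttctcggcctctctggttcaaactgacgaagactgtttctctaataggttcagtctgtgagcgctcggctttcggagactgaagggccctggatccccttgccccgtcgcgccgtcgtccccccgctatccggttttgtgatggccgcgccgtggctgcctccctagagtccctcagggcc
YPEL3: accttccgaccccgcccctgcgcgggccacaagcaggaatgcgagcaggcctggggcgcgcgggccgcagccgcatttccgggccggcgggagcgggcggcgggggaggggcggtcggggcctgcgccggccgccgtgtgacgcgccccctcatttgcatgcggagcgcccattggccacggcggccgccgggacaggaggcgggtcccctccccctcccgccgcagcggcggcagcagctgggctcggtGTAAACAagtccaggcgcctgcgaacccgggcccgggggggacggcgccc

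Sterol genes fell together. Of 27 cholesterol synthesis and uptake genes tested, 22 fell and 0 rose, with a median of -1.44. HMGCS1, which makes HMG-CoA, had 138, 77.8, 92.1 and 91 CPM at 10 h, against 612, 557, 472 and 578 CPM at 0 h. INSIG1, which holds the SREBP precursor in the endoplasmic reticulum, had 12.3, 28.8, 17.2 and 26.1 CPM at 10 h, against 168, 190, 199 and 233 CPM at 0 h. Neither overlapped between groups, and the changes were -2.47 ± 0.18 and -3.19 ± 0.24 (adjusted p 3.49e-10 and 5.55e-10). The list held 0.233%, 0.247%, 0.246% and 0.245% of counts at 10 h and 0.728%, 0.672%, 0.719% and 0.691% at 0 h. The 4 tested genes of the list on LXR, the oxysterol receptor that drives sterol export, fell too. They were the receptor genes NR1H3, or LXR alpha (-2.23 ± 0.21), and NR1H2, and the targets ABCA1, an exporter (-1.06 ± 0.23), and LPCAT3 (-1.45). The fall of NR1H2, or LXR beta (-0.91 ± 0.33), was not called without 10 h replicate 1, 10 h replicate 4, 0 h replicate 2 or the 4 end libraries (adjusted p from 0.0712 to 0.12). Of 15 fatty acid synthesis genes, 9 fell and 1 rose (ELOVL1, an elongase, at 0.74 ± 0.14); SCD, the stearoyl-CoA desaturase, had 94.2, 123, 116 and 115 CPM at 10 h, against 481, 646, 631 and 550 CPM at 0 h, a change of -2.36 ± 0.17 with no overlap (adjusted p 3.13e-10). The sterol element TCACNCCAC was in 1 of 21 promoters of the cholesterol list, that of SREBF2, against 1.13% of all promoters.

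Genes of autophagy and the lysosome fell or were not called. Of 31 autophagy and lysosome genes tested, 19 fell and 0 rose (12 fell without 0 h replicate 3 and 8 without the 4 end libraries). PSAP, the saposin precursor, had 4259, 6299, 5542 and 5529 CPM at 10 h, against 7964, 10293, 12005 and 9095 CPM at 0 h, with no overlap (-0.86 ± 0.13, adjusted p 1.71e-05). SQSTM1, the autophagy receptor p62, fell (-1.62 ± 0.17), and CTSD, cathepsin D, was not called (-0.65 ± 0.30; adjusted p 0.0249 without 10 h replicate 2 and 0.0305 without 0 h replicate 1). TKT, transketolase of the pentose phosphate pathway, had 476, 735, 720 and 509 CPM at 10 h, against 3541, 4115, 3955 and 3770 CPM at 0 h. GAPDH had 2928, 3614, 3884 and 3160 CPM at 10 h, against 5278, 5692, 5740 and 5456 CPM at 0 h. Neither overlapped, with TKT 6.31-fold and GAPDH 1.63-fold lower at 10 h (-2.66 ± 0.18 and -0.71 ± 0.11; adjusted p 1.6e-10 and 1.91e-05). Of 21 glycolysis genes, 5 rose, near the 23.3% of all genes tested, and 7 fell, beside 21.5% of all. PFKP, a phosphofructokinase, was at 1.22 ± 0.19 and LDHA, lactate dehydrogenase, at 0.52 ± 0.13. Of 21 mTORC1 regulators 9 fell and 2 rose (1 rose without 10 h replicate 1 or 0 h replicate 4, 5 fell without 10 h replicate 2 or without 0 h replicate 3, and 4 without the 4 end libraries): the inhibitor DDIT4, or REDD1, fell (-5.87 ± 0.36) and the activating GTPase RHEB rose (0.85 ± 0.21). CAT, catalase, had 75.8, 62.5, 65.6 and 80.2 CPM at 10 h, against 197, 197, 188 and 232 CPM at 0 h, a change of -1.51 ± 0.17 with no overlap (adjusted p 1.94e-07).

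Interferon-stimulated genes, most of them antiviral, fell in 27 of 36 tested and rose in 0 (median -1.09). IFIT1, which binds viral RNA that lacks the host cap modification, had 4.1, 2.88, 1.56 and 1.8 CPM at 10 h, against 124, 58.3, 86.6 and 88.2 CPM at 0 h, with no overlap (-5.00 ± 0.44, adjusted p 8.26e-09). Of the factors that carry the signal, STAT2 (-2.18 ± 0.24), IRF9 (-2.23 ± 0.30) and IRF1 (-2.31 ± 0.28) fell by more than 4-fold. B2M, the light chain of class I antigen-presenting molecules, was not called (-0.18 ± 0.22).

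Genes of the primary cilium, an organelle that RPE-1 cells build when starved, fell in 13 of 32 and rose in 2. IFT140, of the retrograde transport complex, had 20.5, 36.5, 26.5 and 32.4 CPM at 10 h, against 67.8, 86.9, 175 and 85.2 CPM at 0 h. IFT81, of the anterograde complex, had 36.9, 22.1, 34.3 and 30.6 CPM at 10 h, against 107, 92.2, 57.8 and 127 CPM at 0 h. Neither overlapped (-1.81 ± 0.30 and -1.64 ± 0.22; adjusted p 5.18e-05 and 3.67e-06), and the Hedgehog transducer SMO fell (-0.96 ± 0.34) while HHIP, a Hedgehog inhibitor, rose by 2.08 ± 0.20. IFT88, another subunit of the anterograde complex, was not called (-0.29 ± 0.32). The p53 targets outside CDK inhibition fell in 9 of 18 and rose in 2; TP53INP1 (-3.10 ± 0.57) and FDXR (-2.52 ± 0.27) fell and MDM2, the ligase of p53, was not called (-0.26 ± 0.20). Of 10 clock genes tested, 3 fell and 1 rose, beside 21.5% and 23.3% of all genes tested. DBP, a clock output factor, had 2.05, 1.92, 6.24 and 0 CPM at 10 h, against 19.4, 23.3, 28.9 and 19.4 CPM at 0 h, and NR1D2, the REV-ERB beta repressor, fell (-1.25 ± 0.19), while their activator BMAL1 rose by 1.08 ± 0.25, a call lost without the 4 end libraries (adjusted p 0.135).

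**Figure D4:**
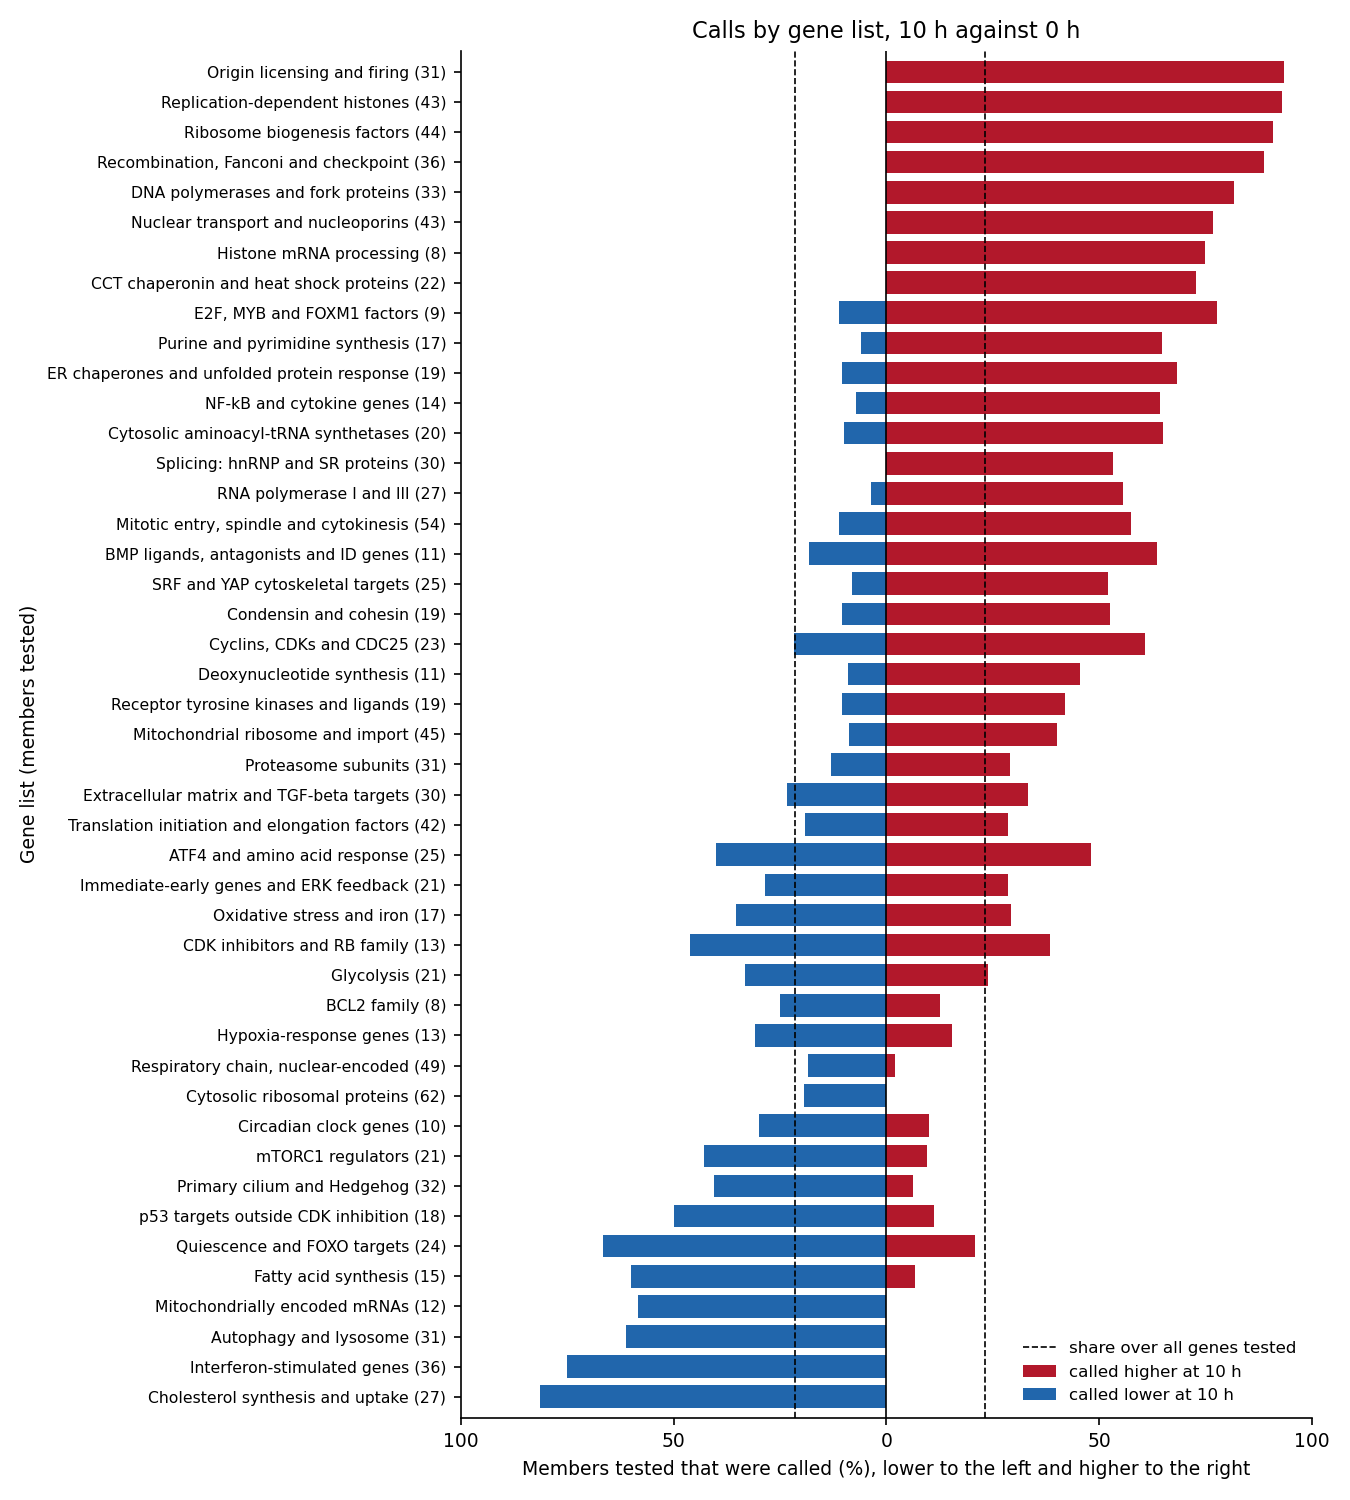
Share of tested members of each of 45 gene lists (those with at least 8 tested) called higher at 10 h than at 0 h (red, right) and lower (blue, left), in percent, with dashed lines at the 23.3% and 21.5% of all tested genes. Licensing, recombination, histone and ribosome biogenesis lists reach furthest to the right, and cholesterol, interferon and quiescence lists furthest to the left.

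The 5 h and 15 h RNA libraries place these levels in time; their comparisons share the 0 h libraries with the one at 10 h, so the values stand side by side without a test of likeness. CCND1 averaged 165, 903, 1206 and 783 CPM at 0, 5, 10 and 15 h. CDC6 averaged 7.8, 25.6, 365 and 286 CPM at 0, 5, 10 and 15 h, and RRM2 10.6, 1.97, 43.1 and 133 CPM. For RRM2, 5 h was thus below 0 h. KIF20A averaged 286, 11.3, 46.4 and 270 CPM, so that at 10 h it lay between 5 h and its level at either end. The median change of the mitotic list against 0 h was -1.97 at 5 h, 0.90 at 10 h and 2.34 at 15 h, and that of the histones -0.91, 1.87 and 4.06, with 8.63% of counts at 15 h. Between 10 h and 5 h, 887 of the 8775 genes (10.1%) were higher at 10 h and 839 (9.56%) lower, and 50 of 54 mitotic, 42 of 43 histone and 29 of 31 licensing genes were among the higher. All 14 NF-kB genes were lower at 10 h than at 5 h, with medians against 0 h of 3.74 at 5 h, 1.55 at 10 h and 0.92 at 15 h. The cholesterol list had medians of -0.76, -1.44 and -1.85, and ribosome biogenesis was at 1.27, 1.60 and 1.46. TXNIP averaged 631, 18.7, 122 and 155 CPM over the same times, so 10 h was above 5 h (2.74 ± 0.19 for 10 h over 5 h).

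**Figure D5:**
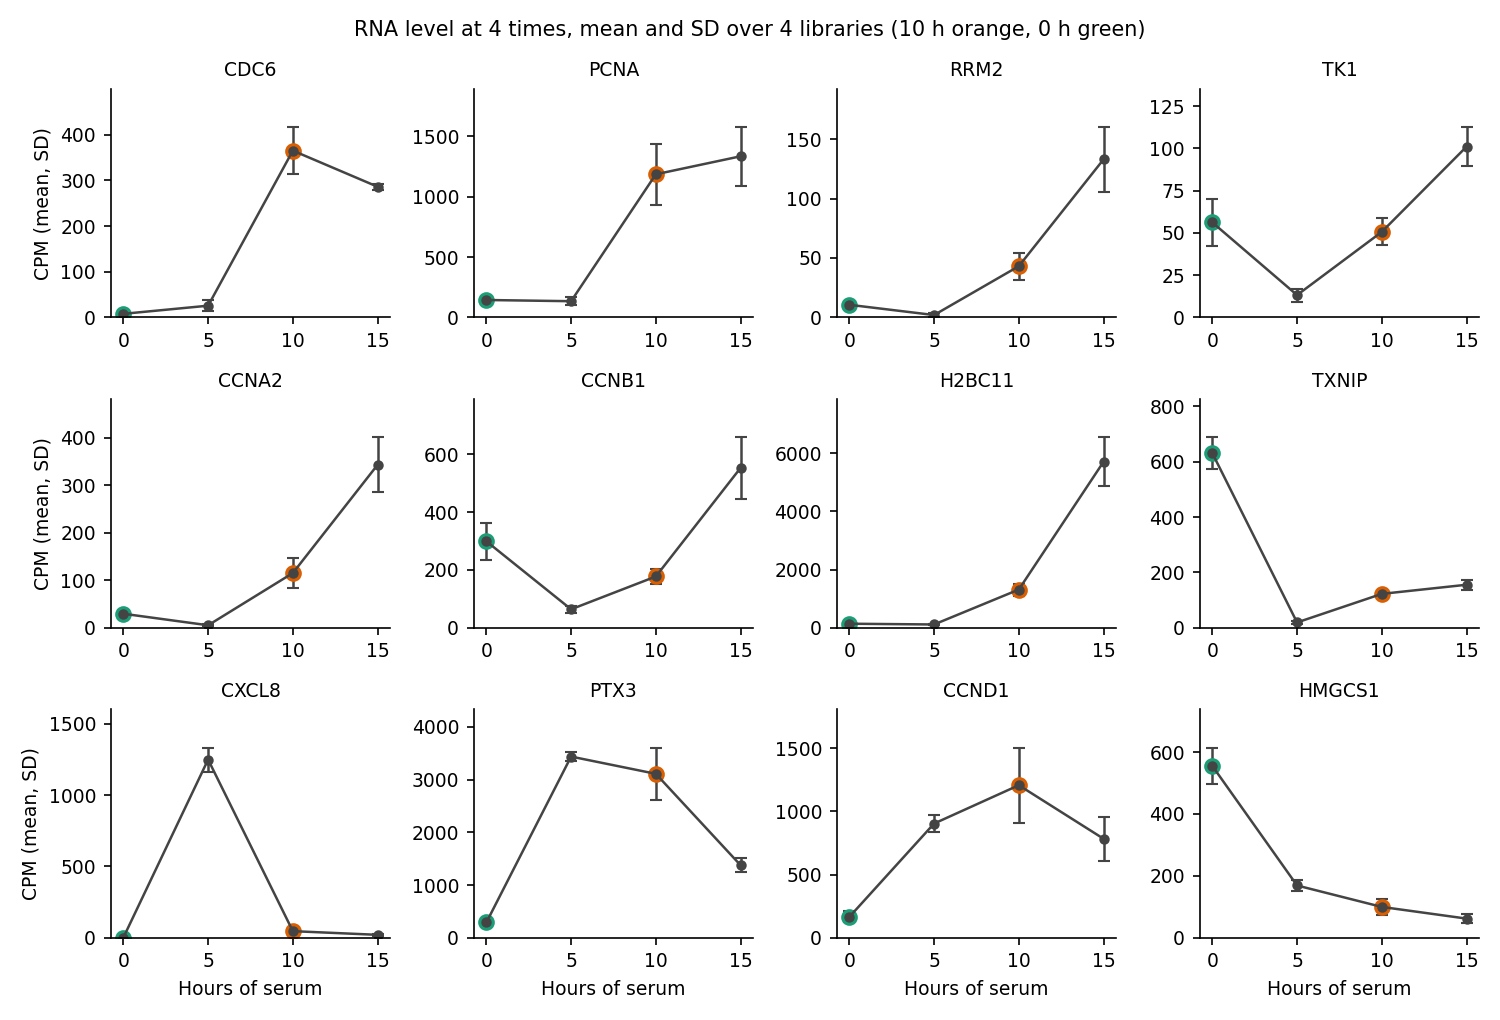
Mean level in CPM with SD over 4 libraries (y axis) at 0, 5, 10 and 15 h of serum (x axis) for 12 genes, 1 panel each. CDC6 and CCND1 have their highest mean at 10 h, CXCL8 has it at 5 h, and RRM2, TK1, CCNA2, CCNB1 and H2BC11 are lowest at 5 h and highest at 15 h.

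In footprints, whose libraries are separate from the RNA ones, 39.4% of all genes tested were higher at 10 h than at 0 h and 39% lower. There, 30 of 31 licensing genes were higher at 10 h, with a median of 3.32 beside 2.56 in RNA. Of 27 cholesterol genes 25 were lower (median -1.51), and of 36 interferon genes 33 (median -1.26). TK1, not called in RNA, was at 0.18 in footprints, and CCNE1 and CCND1 were at 2.35 and 2.66 beside their RNA changes of 2.62 ± 0.25 and 2.87 ± 0.20. CDT1 was at 4.46 in footprints and 1.36 ± 0.30 in RNA, and RRM2 at 4.28 and 2.02 ± 0.31; whether these pairs differ was not tested here.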

How the data were processed

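The series measured RNA and ribosome footprints of RPE-1 cells at 4 times, and the table deposited by the authors holds whole-number counts per gene and library, not normalized. Per the labels' protocols, ribosomal RNA was depleted and libraries were built with a small-RNA kit. Per the submitters' processing notes, STAR 2.5.4a, featureCounts 1.5.1 and GRCh38 were used; the annotation release, the strand setting, the treatment of molecular identifiers and that of reads shared between copies are not given in the sources used here, so overlapping and antisense genes cannot be told apart. Gene lengths, per the file headers, are those of the counted part of each gene, and 96.46% are multiples of 3. That part can be short, as in RRM1 (150 bases) and SERPINB2 (284 bases). Whether it spans the whole coding sequence was not tested.

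Genes were matched to lists and to RefSeq promoters (GRCh38.p14) by symbol, which 18905 of 19023 genes had. edgeR 4.0.16 (R 4.3.3, limma 3.58.1) was fitted to the 16 RNA libraries with TMM scaling, filterByExpr by time and a quasi-likelihood test of 10 h against 0 h, with Benjamini-Hochberg adjustment over 8775 genes; footprints were fitted likewise over 10959 genes. CPM were computed here on the scaled library sizes, from 632023 to 1107470 counts per library at these 2 times, and that depth makes values resting on a few counts imprecise. The fit was tested on simulated data first. There, a small part of the genes was changed and each library was drawn independently. That run therefore does not cover changes in as many genes as here, or the shared axis of spread between replicates. Groups came from the labels. All 54 gene lists and the rule for named genes were chosen with earlier results of these data known. That rule took the 15 largest non-overlapping changes each way with at least 10 CPM in a group, key genes, up to 4 called members per list with the largest change and the 5 largest CPM gains and losses, 276 genes in all; other members were named after their values were seen. The lists held 1369 genes, of which 1174 were tested. Among key genes, E2F8, IRS2, BCL6, EGR1, CCL2, COL1A1, PER1, PER3, NR1D1, PTCH1 and GLI1 had too few counts and were not tested, and CCNG2 was not analysed here. Some named genes are not reported here. Alternatives were DESeq2 1.42.0, other scalings and filters, a replicate block, fewer libraries and leaving out each library. Figures used Python 3.11.15 and matplotlib 3.10.9.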

Additional observations from a re-analysis of the deposited data

Results flagged for a closer look

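Among 146 sets of 4 libraries (the levels printed by library above and the list shares, at 10 h and at 0 h), 4 had a library far from the other 3 by Dixon's 95% criterion on the gap over the range; chance passes about 1 set in 20. TYMS at 10 h was 69.2 CPM in replicate 2, where the others ran from 37.5 to 39.6 CPM. HBP1 at 10 h was 47.1 CPM in replicate 1, where the others ran from 31.2 to 32.4 CPM. The cholesterol list at 10 h held 0.233% of counts in replicate 1, where the others held from 0.245% to 0.247%. H2BC11 at 0 h was 165 CPM in replicate 1, where the others ran from 121 to 126 CPM.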

How the results depend on the processing

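The 2046 higher and 1883 lower genes became 2050 and 1870 with RLE scaling, 1807 and 2223 on total counts alone, 2173 and 1977 with a filter of 10 summed counts, 2228 and 1843 with at least 1 CPM in 4 libraries, 1831 and 1609 from the 8 libraries alone, and 1990 and 1762 with DESeq2. Leaving out each library gave from 1816 to 2209 higher and from 1518 to 1765 lower. Without 10 h replicates 1 and 2 and 0 h replicates 1 and 3, an alternative chosen after seeing the data, 1603 were higher and 1056 lower, from 4 fewer libraries, 27 of 276 named genes lost their call and 24 of 96 list counts moved by over 1.5 times. No named call changed sign under any of these; FN1, TK1, NDRG1, IL6 and DNAJB9, none of them called, changed sign under some. With a replicate block 2344 genes were higher and 2310 lower; AURKA (adjusted p 0.0226), CTSD (0.00532), HK2 (0.0158) and SLIT2 passed the threshold, 1 ribosomal protein gene rose, and no named call was lost. The labels do not say whether the numbers pair the libraries, and the reported fit leaves them out. Deviations of same-numbered 10 h and 0 h libraries correlated at 0.505, 0.293, 0.094 and 0.028. The best match of 10 h replicate 2 was 0 h replicate 3 (0.535). On the main axis at 0, 5, 10 and 15 h, replicate 1 scored -0.3, -0.11, -0.4 and -0.25. Replicate 2 scored 0.14, 0.34, 0.41 and 0.37, replicate 3 0.37, -0.14, 0.02 and 0.04, and replicate 4 -0.21, -0.09, -0.03 and -0.16. Pairing by number is thus not settled here. Ribosomal protein rises were also 1 without 10 h replicate 2 and 1 without 0 h replicate 4. Ribosomal protein falls, 12 as reported, were 23 with the block, 7 from the 8 libraries and 6 with the 1 CPM filter, and respiratory chain falls, 9 as reported, were 18 with the block, 17 on total counts alone and 4 with the 1 CPM filter. Receptor kinase falls, 2 as reported, were 5 with the block and 4 on total counts or with either filter, clock falls, 3 as reported, were 5 with either filter, and falls of mitochondrially encoded mRNAs, 7 as reported, were 4 with the 1 CPM filter. Lists with 0 falls gained 1 with the block (licensing, fork, recombination, histone processing and splicing) and in places without 1 library: licensing without 10 h replicate 1, recombination without 10 h replicate 3 or 0 h replicate 3, histone processing without 10 h replicate 2 and splicing without 10 h replicate 1 or 2. The interferon list gained 1 rise with the block or without 0 h replicate 2. Depth limits rare mRNAs: 3065 genes had no count in the 16 RNA libraries, and folds resting on under 10 counts are loosely set.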

Other observations

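Chaperones of the endoplasmic reticulum, which fold secreted proteins, were among the lists not described above. Of 19 tested, 13 rose and 2 fell, with a median of 1.05 beside -0.03 over all genes tested. The largest rises were those of SDF2L1 (2.81 ± 0.29), CRELD2 (2.73 ± 0.18) and MANF (2.20 ± 0.18), while HSPA5, or BiP, rose by 1.79 ± 0.48 with an adjusted p of 0.101 without the 4 end libraries. HERPUD1, of the degradation machinery, fell (-0.62 ± 0.21), a call lost without any 1 of 4 libraries (10 h replicates 1 and 3 and 0 h replicates 2 and 3). That call was also lost without the 4 end libraries. DNAJB9, a target of XBP1, was not called (0.20 ± 0.32). Of 6 secreted and membrane proteases tested, 3 rose, PLAUR (2.29 ± 0.14), the urokinase receptor, PLAT (2.04 ± 0.13), the tissue plasminogen activator, and ADAMTS1, and urokinase itself, PLAU, fell (-0.98 ± 0.22; adjusted p 0.0878 without the 4 end libraries). Of 30 matrix genes 10 rose and 7 fell, the falls near the 21.5% of all genes tested (3 lower without 0 h replicate 3 or without the 4 end libraries, and 4 lower without 10 h replicate 1, 10 h replicate 4 or 0 h replicate 2). The basement membrane collagen COL4A1 (1.98 ± 0.29) and the cross-linking enzyme LOX (1.73 ± 0.26) were among the 10.

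Condensin and cohesin genes rose in 10 of 19 and fell in 2. The condensin II subunit NCAPD3 rose by 2.25 ± 0.19, while NCAPD2, the matching subunit of condensin I, fell (-2.10 ± 0.28). Of 45 genes of the mitochondrial ribosome and import, 18 rose and 4 fell (1 fell without 10 h replicate 2 or the 4 end libraries, and 2 without 10 h replicate 4), with the import pore TOMM40 at 2.77 ± 0.38 and the matrix chaperone HSPA9 at 1.52 ± 0.11. Of 49 nuclear genes of the respiratory chain 1 rose and 9 fell, a share of falls below the 21.5% of all genes tested (3 fell without 10 h replicate 1, 5 without 10 h replicate 4 and 2 without the 4 end libraries), with the complex I subunit NDUFB11 at -0.76 ± 0.13. Proteasome genes rose in 9 of 31 and fell in 4 (1 without the 4 end libraries), beside 23.3% and 21.5% of all genes tested. PSME3, an activator cap, was at 1.42 ± 0.16 and PSMD14, the deubiquitinase of the lid, at 1.33 ± 0.21.

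Among 17 genes of oxidative stress and iron, 5 rose and 6 fell. Over all genes tested 23.3% rose and 21.5% fell, shares to set beside each count in this paragraph. The transferrin receptor TFRC, which brings iron in, rose by 1.67 ± 0.17, and ferroportin SLC40A1, which lets it out, fell (-2.99 ± 0.53), while the haem oxygenase HMOX1 was not called (0.58 ± 0.35; adjusted p 0.0408 without 10 h replicate 1). Of 13 hypoxia-response genes 2 rose (1 without 10 h replicate 4, 0 h replicate 2 or 0 h replicate 4) and 4 fell, the MYC antagonist MXI1 the most (-2.43 ± 0.38). Of 8 BCL2 family genes 1 rose, BID (1.03 ± 0.26), and 2 fell, BMF and BAD, the call of BAD being lost without any 1 of 5 libraries (10 h replicates 1, 2 and 4 and 0 h replicates 3 and 4). The BAD call was also lost without the 4 end libraries, from the 8 compared libraries alone and with either alternative filter on low counts. All 7 polyamine genes tested were called, 4 higher, among them AMD1 (1.90 ± 0.25), which supplies the aminopropyl donor, and 3 lower. MERTK, the phagocytosis receptor of pigment epithelium, fell (-2.76 ± 0.36).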
